A study of Mus musculus with 8 samples.

Results

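Genes of antigen presentation on MHC class I molecules, together with Cd274, which encodes the T cell inhibitory ligand PD-L1, were followed across 4 mouse mammary tumour lines. The 10 genes were chosen by symbol from the count table and are H2-K1, H2-D1, B2m, Tap1, Tap2, Tapbp, Psmb8, Psmb9, Nlrc5 and Cd274. All 10 were among the 27179 genes of the table and among the 13927 that entered the test. The rule that picks them uses no measured value, but they and the lists below were chosen with earlier results of these data known. The lines 4T1.2, 4T1, 66cl4 and 67NR are isogenic and BALB/c-derived, and differ in how readily they metastasise, 4T1 and 4T1.2 more than the others. Total RNA was sequenced from 2 biological replicates of each line, with no treatment of any group and no normal mammary cells among the samples. The labels spell one line 66c14, and 66cl4 is used here. Each group is a single cell line grown without the cells of a host, so line and any history of its culture cannot be told apart, and p-values measure the spread between 2 samples of a line. Libraries held between 37159840 and 66269681 counts, and the 10 genes together took between 0.141% and 0.296% of them.

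Class I molecules are built from a polymorphic heavy chain, such as those encoded by H2-K1 and H2-D1, and the invariant light chain beta-2-microglobulin, encoded by B2m. Peptides made by the proteasome are carried into the endoplasmic reticulum by a transporter of the Tap1 and Tap2 chains and loaded with the help of tapasin, encoded by Tapbp. Psmb8 and Psmb9 encode subunits that replace their constitutive counterparts in the immunoproteasome, Nlrc5 encodes a transactivator of class I genes, and PD-L1 on tumour cells engages PD-1 on T cells. Interferons are known to raise the expression of all of these genes.

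The lines were first checked for other cell types. Of 14 leukocyte markers, Cd3e, Adgre1 and Tyrobp had no count in any library and Ptprc had a mean of at most 0.0264 CPM (counts divided by the library size, scaled by TMM) in a line. The summed level of the list was 1.06 to 1.93 CPM in the 4T1.2 and 4T1 libraries and 20.4 to 27.2 CPM in the 66cl4 and 67NR libraries, most of it Lyz2, which had means of 19.6 CPM in 66cl4 and 22.6 CPM in 67NR, followed by Coro1a with 1.85 and 3.28 CPM. The 7 endothelial markers summed to between 0.41 and 1.78 CPM, except in the 4T1 libraries, which had 9.51 and 9.85 CPM. The 10 mammary epithelial markers ranged in sum from 1875 to 3540 CPM in the 4T1 lines, against 465 to 722 CPM in 66cl4 and 67NR. There, the epithelial genes Epcam and Cdh1 had means of at most 0.0995 CPM while the keratin gene Krt8 had line means of 495 CPM or more. The 12 fibroblast and mesenchymal markers summed to 5485 to 7463 CPM in the 4T1 lines, 5671 and 4741 in 66cl4, and 3246 and 3305 in 67NR. Of the 10 tested, 2 were higher and 8 lower in the 4T1 lines than in 66cl4 and 67NR (adjusted p under 0.05, edgeR). Of all genes tested, 38.1% were higher and 38.6% lower. The mesenchymal cadherin gene Cdh2 had means of 94.0 CPM in 66cl4 and 81.8 CPM in 67NR against at most 0.0108 CPM in the 4T1 lines. The part of all these markers in the results below was not tested. In bulk RNA, fewer cells that express a gene and less RNA per cell cannot be told apart.

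The heavy chains and B2m were highest in 4T1.2 and 4T1, intermediate in 67NR and lowest in 66cl4. H2-K1 (chromosome 17, 33996012 to 34000619, coordinates throughout in GRCm38) had 401 and 513 CPM in the 4T1 libraries, 374 and 364 in 4T1.2, 220 and 243 in 67NR, and 147 and 136 in 66cl4. H2-D1 (chromosome 17, 35263094 to 35267497) had 652 and 820 CPM in 4T1, 593 and 620 in 4T1.2, 419 and 446 in 67NR, and 217 and 201 in 66cl4. B2m (chromosome 2, 122147687 to 122153082) had 1257 and 1577 CPM in 4T1, 1439 and 1671 in 4T1.2, 873 and 816 in 67NR, and 640 and 585 in 66cl4. For all 3 genes every library of 4T1.2 and 4T1 lay above every library of 67NR, and these above both of 66cl4, while 4T1.2 and 4T1 overlapped for B2m alone.

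**Figure D1:**
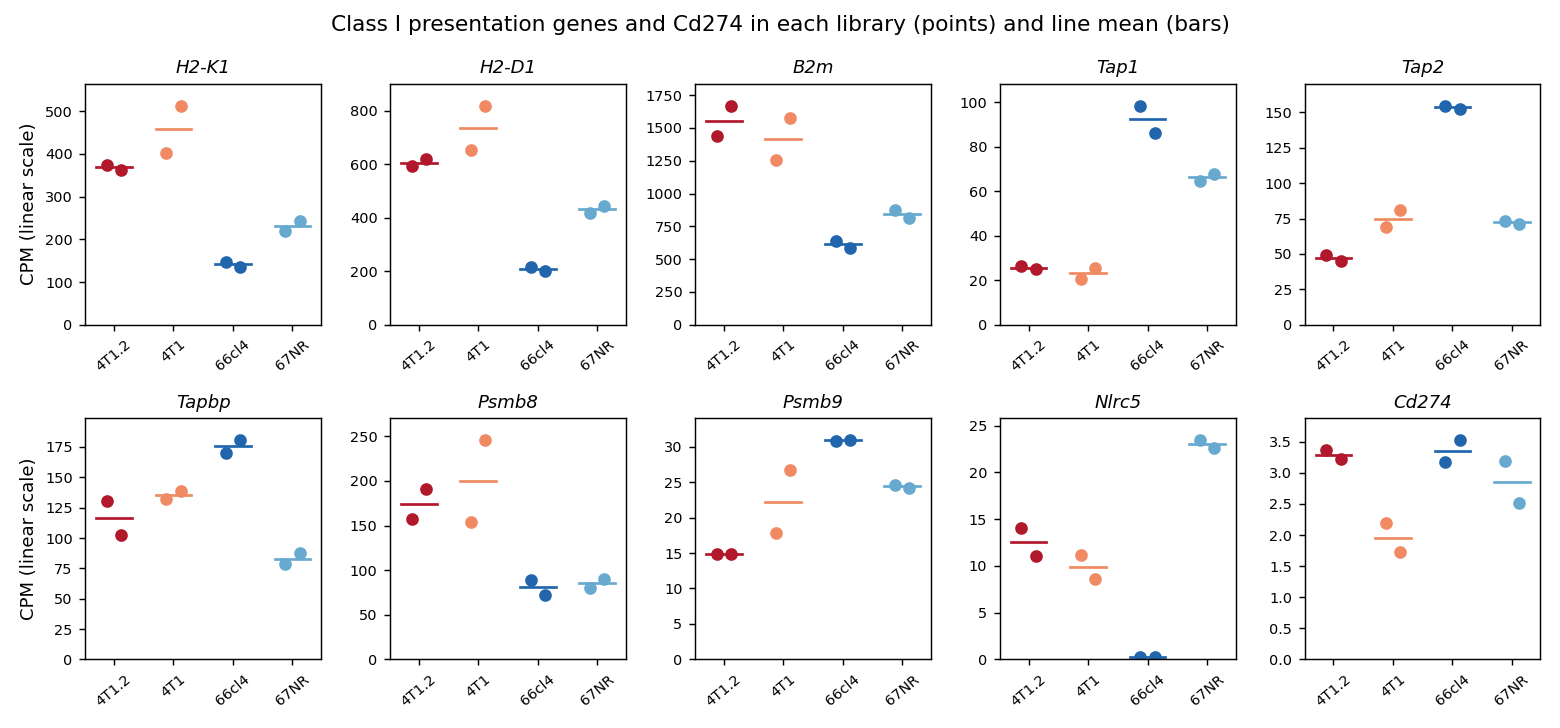
Level of each of the 10 genes in the 8 libraries, in CPM on a linear axis from 0 (points, 2 replicates a line; horizontal bars, line means). H2-K1, H2-D1 and B2m were lowest in 66cl4, at line means of 141, 209 and 613 CPM, whereas Tap1, Tap2, Tapbp and Psmb9 were highest there and Nlrc5 was near 0.

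The pooled comparison set the average of both 4T1 lines against that of 66cl4 and 67NR, and gave a log2 fold change of 1.18 for H2-K1 (SE 0.09, 2.27-fold, adjusted p = 7.41e-07). Adjusted p-values are from the quasi-likelihood test of edgeR, adjusted by the Benjamini-Hochberg method over the 13927 genes. The same comparison gave 1.15 for H2-D1 (SE 0.08, 2.22-fold, adjusted p = 6.96e-07, edgeR) and 1.04 for B2m (SE 0.09, 2.06-fold, adjusted p = 3.74e-06, edgeR). Between the lines of low metastatic potential, 66cl4 was below 67NR by 0.71 for H2-K1 on the log2 scale (adjusted p = 0.00104, edgeR) and by 1.05 for H2-D1 (adjusted p = 7.84e-05, edgeR), 1.64-fold and 2.07-fold. B2m was 1.38-fold lower in 66cl4 than in 67NR (log2 fold change -0.46, adjusted p = 0.0169, edgeR), a call that was lost without 66cl4 replicate 2, 67NR replicate 1 or 67NR replicate 2 (adjusted p 0.102, 0.108 and 0.0586). Between 4T1.2 and 4T1 none of the 3 passed the test, and the 95% interval of the log2 difference was -0.58 to -0.04 for H2-K1, -0.54 to -0.02 for H2-D1 and -0.16 to 0.43 for B2m. Without 4T1 replicate 1, H2-K1 and H2-D1 were lower in 4T1.2 by 0.48 and 0.43 on the log2 scale (adjusted p 0.00763 and 0.0124, edgeR).

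On the RPKM scale, which divides CPM by exon length in kilobases, the ratio of H2-K1 to H2-D1 ran from 0.554 to 0.714 over the 8 libraries and that of both heavy chains together to B2m from 0.287 to 0.427. The first ratio was highest in both 66cl4 libraries and lowest in both 67NR libraries. The second was 0.287 and 0.291 in 66cl4, 0.297 and 0.339 in 4T1.2, 0.369 and 0.425 in 67NR, and 0.423 and 0.427 in 4T1, so that 66cl4 was lowest but close to a 4T1.2 library. The genome build behind the counts is that of C57BL/6J, whose H2 alleles differ from those of BALB/c mice, and the effect of this on the counts of the heavy chains was not tested. Of the 75-base stretches of reference transcripts, 3.10% of those of H2-K1 and 5.56% of those of H2-D1 were also in transcripts of other genes, H2-Q genes among them, and none of those of B2m.

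The promoters of the heavy chains and B2m are shown because these genes moved together across the lines. The sequences are from RefSeq (build GRCm38.p6), 250 bases before to 50 after an annotated start, and 8 of the 10 genes had one. For H2-K1, which has more than 1 overlapping window in the table, the first is printed. Its start lies inside the gene span of 33996012 to 34000619, whereas that of H2-D1 is at the end of its span. The capitals mark a kappaB core (GGGANTNCC), the X2/CRE core (TGACG), the Y box (ATTGG), an interferon-stimulated response element core (GAAANNGAA), or the reverse complement of one of them, searched on both strands. The windows are chr17:34000298-34000597 (minus strand) for H2-K1, chr17:35262844-35263143 (plus strand) for H2-D1 and chr2:122147437-122147736 (plus strand) for B2m.
H2-K1: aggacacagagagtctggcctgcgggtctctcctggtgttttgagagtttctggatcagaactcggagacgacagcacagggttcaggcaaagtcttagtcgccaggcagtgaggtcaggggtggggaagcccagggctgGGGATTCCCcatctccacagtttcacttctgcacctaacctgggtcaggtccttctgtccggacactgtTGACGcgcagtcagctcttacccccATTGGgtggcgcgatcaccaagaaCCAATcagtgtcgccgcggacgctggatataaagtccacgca
H2-D1: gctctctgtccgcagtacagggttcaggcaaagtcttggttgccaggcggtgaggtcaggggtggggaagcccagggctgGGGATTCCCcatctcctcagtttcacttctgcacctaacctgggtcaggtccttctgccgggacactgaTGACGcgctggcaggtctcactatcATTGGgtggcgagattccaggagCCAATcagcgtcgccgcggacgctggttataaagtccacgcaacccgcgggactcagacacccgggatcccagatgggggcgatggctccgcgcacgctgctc
B2m: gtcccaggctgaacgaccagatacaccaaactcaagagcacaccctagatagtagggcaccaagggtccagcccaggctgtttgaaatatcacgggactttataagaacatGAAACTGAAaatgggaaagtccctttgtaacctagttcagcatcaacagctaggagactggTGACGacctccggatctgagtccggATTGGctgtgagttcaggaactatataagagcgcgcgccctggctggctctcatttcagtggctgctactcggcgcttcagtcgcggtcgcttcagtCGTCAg
In all 3 promoters TGACG was followed by ATTGG on the same strand with 25 bases from the start of one to the start of the next, and in H2-K1 and H2-D1 the kappaB core began 69 bases before the TGACG. In both genes the letters of this site, GGGATTCCC, match the pattern GGGANTNCC and also its reverse complement. The spacing of 25 bases was searched for in all 27025 promoters after it had been seen in these, and 26 (0.0962%) held it, among them 1 (H2-M3) of the 13 other class I chains that have a promoter in the table. Single motifs were far more common. Of all promoters 37.9% held ATTGG, 21.0% TGACG, 8.57% GAAANNGAA, 8.47% the gamma-activated site TTCNNNGAA and 3.95% the kappaB core. Of the 8 promoters of the genes described, 6 held ATTGG, 5 TGACG, 2 GAAANNGAA (B2m and Cd274), 1 TTCNNNGAA (Psmb8) and 2 the kappaB core. A match describes the letters and does not show that a factor bound there. Only these exact letters were searched, so a promoter without a match may hold another form of an element. One example is the stretch tttcacttc of the H2-K1 and H2-D1 promoters, which GAAANNGAA and its reverse complement do not match.

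The other class I chains were counted in the same way. Of 18 tested, 12 were higher and 4 lower in 4T1 and 4T1.2 than in 66cl4 and 67NR, where 38.1% and 38.6% of all genes tested were called, with a median log2 fold change of 0.82 against -0.01 over all genes tested. The nonclassical H2-Q7 was the most different, with mean levels of 30.6 CPM in 4T1, 28.2 in 4T1.2, 5.82 in 67NR, and 3.55 in 66cl4 (log2 fold change 2.69, SE 0.10, adjusted p = 4.94e-09, edgeR). H2-T23, which encodes the Qa-1 molecule that presents peptides to natural killer cell receptors, was higher by 1.83 (SE 0.13, adjusted p = 5.72e-07, edgeR). H2-Q6, H2-Q2 and H2-Q1 had log2 fold changes of 1.54, 1.27 and 1.31, and these 3 were lower in 66cl4 than in 67NR, by 0.70, 0.72 and 0.72 on the log2 scale. Of the 18 chains, 6 were higher and 7 lower in 66cl4 than in 67NR, against 22.2% and 22.4% of all genes tested. H2-T23 was among the higher ones (0.54, adjusted p = 0.0348, edgeR). The H2-Q genes resemble H2-K1 and H2-D1 in sequence, so reads may be divided among them. The 4 chains lower in the 4T1 lines, named after their values were seen, were H2-T10, H2-T22, Mr1 and Fcgrt (log2 fold changes -0.69, -0.56, -0.21 and -1.40). Of these, Fcgrt encodes the neonatal Fc receptor.

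The transporter ran the other way. Tap1 (chromosome 17, 34187556 to 34197225) had 20.6 and 25.6 CPM in 4T1, 26.3 and 25.1 in 4T1.2, 64.8 and 67.7 in 67NR, and 98.5 and 86.1 in 66cl4. Every library of 4T1.2 and 4T1 lay below every other, and both of 66cl4 above both of 67NR. In the pooled comparison the 4T1 lines were 3.21-fold lower (log2 fold change -1.68, SE 0.09, adjusted p = 4.91e-08, edgeR). Tap1 was 1.39-fold higher in 66cl4 than in 67NR (log2 fold change 0.48, adjusted p = 0.00859, edgeR), which was lost without 66cl4 replicate 1 or 67NR replicate 1 (adjusted p 0.0680 and 0.0685).

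Tap2 (chromosome 17, 34204479 to 34216321), the partner chain, had 68.8 and 80.7 CPM in 4T1, 49.1 and 45.0 in 4T1.2, 73.6 and 70.9 in 67NR, and 155 and 152 in 66cl4. Here 66cl4 stood above the other lines, 4T1.2 below them, and the 4T1 and 67NR libraries overlapped. The pooled log2 fold change was -0.83 (SE 0.07, adjusted p = 2.49e-06, edgeR), and 66cl4 was 2.13-fold above 67NR (adjusted p = 2.29e-05, edgeR). Between 4T1 and 67NR the difference was 0.05 with a 95% interval of -0.17 to 0.27 (adjusted p = 0.676, edgeR). 4T1.2 was lower than 4T1 by 0.67 on the log2 scale, or 1.59-fold (adjusted p = 0.00146, edgeR).

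Tapbp (chromosome 17, 33919478 to 33929290) had 132 and 138 CPM in 4T1, 130 and 102 in 4T1.2, 78.7 and 87.3 in 67NR, and 170 and 181 in 66cl4. It was highest in 66cl4 and lowest in 67NR, and the pooled comparison of the 4T1 lines with the others did not pass the test (log2 fold change 0.06, 95% interval -0.13 to 0.24, adjusted p = 0.559, edgeR). Between 66cl4 and 67NR it differed 2.11-fold (log2 fold change 1.08, SE 0.12, adjusted p = 7.52e-05, edgeR). The difference between 4T1.2 and 67NR (0.48, adjusted p = 0.00468, edgeR) was lost without 67NR replicate 1 (adjusted p = 0.0513), and that between 4T1 and 66cl4 (-0.37, adjusted p = 0.0167, edgeR) without 66cl4 replicate 2 (adjusted p = 0.0819). Of the 75-base stretches of its transcripts 18.6% were also in transcripts of other genes, the largest share of the 10, and for Tap2 the share was 8.27%.

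Other genes of peptide loading and trimming were higher more often than lower. Of 11 tested, 9 were higher and 1 lower, the aminopeptidase gene Lnpep (-0.46, named after its value was seen), in the pooled comparison (median log2 fold change 0.51), against 38.1% and 38.6% of all genes tested. The chaperone gene Hspa5 was higher by 2.21 (SE 0.09, adjusted p = 6.96e-09, edgeR), and Pdia3, whose product ERp57 is part of the loading complex, by 1.04 (SE 0.07, adjusted p = 6.16e-07, edgeR). Sec61b, a subunit of the translocon, rose by 0.92 and Erap1, the aminopeptidase that trims peptides in the endoplasmic reticulum, by 0.56 (adjusted p 7.01e-06 and 7.52e-05, edgeR). Tapbpl, a relative of tapasin, was also higher by 0.51 (adjusted p = 0.000136, edgeR). Erap1 and Tapbpl were, like Tapbp, higher in 66cl4 than in 67NR, by 0.83 and 0.57. Of the 11, 4 were higher and 2 lower in that comparison, against 22.2% and 22.4% of all genes tested. The lower ones were Sec61b (-0.54) and, named after its value was seen, Calr (-0.74).

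**Figure D2:**
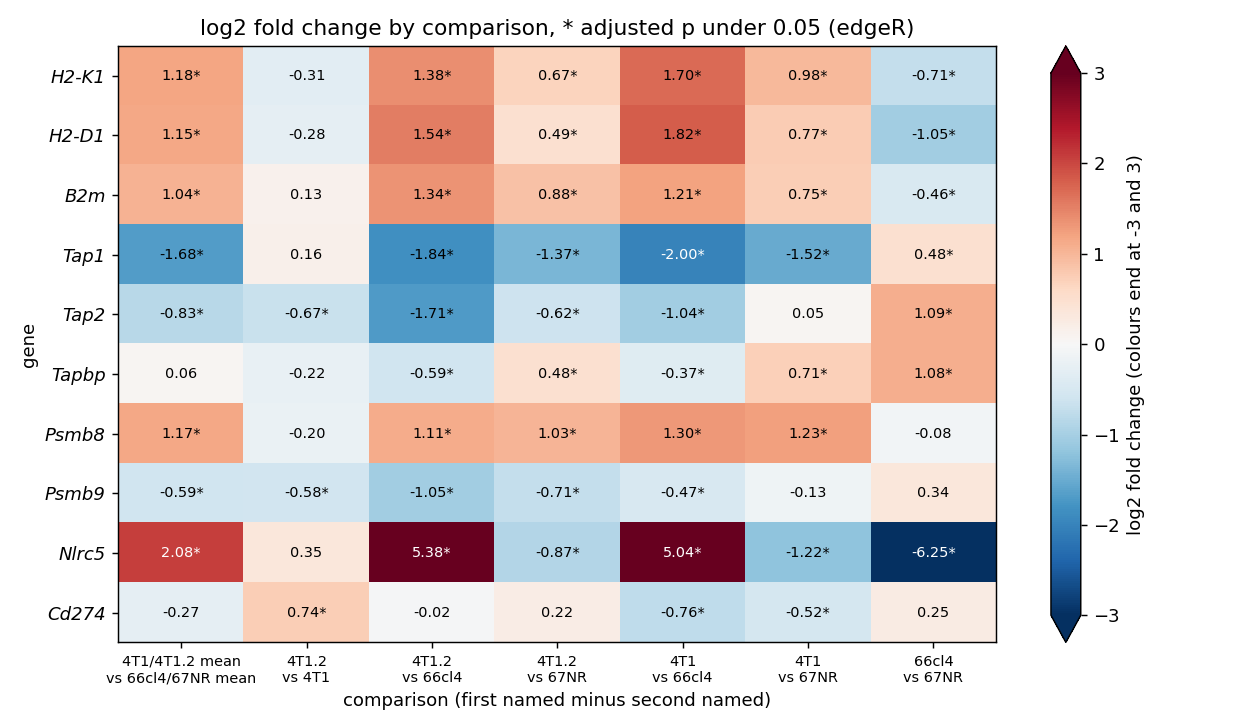
Log2 fold changes of the 10 genes (rows) in the pooled comparison and the 6 comparisons of single lines (columns), the first named line minus the second, with asterisks at an adjusted p under 0.05 (edgeR). H2-K1, H2-D1, B2m and Psmb8 were higher and Tap1 lower in 4T1.2 and 4T1 against either other line, and Nlrc5 was lower than in 67NR but higher than in 66cl4.

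The 2 immunoproteasome subunits differed from each other. Psmb8 (chromosome 17, 34198195 to 34201454) had 154 and 246 CPM in 4T1, 157 and 191 in 4T1.2, 80.0 and 90.4 in 67NR, and 89.0 and 72.7 in 66cl4. The 4T1 lines lay above the others without overlap, with a pooled log2 fold change of 1.17 (SE 0.14, 2.25-fold, adjusted p = 3.86e-05, edgeR), and 66cl4 and 67NR overlapped (difference -0.08, 95% interval -0.53 to 0.37). Psmb9 (chromosome 17, 34182030 to 34187330) had 17.9 and 26.6 CPM in 4T1, 14.9 in both 4T1.2 libraries, 24.6 and 24.2 in 67NR, and 30.9 in both of 66cl4. It was lower in the 4T1 lines by 0.59 on the log2 scale (SE 0.11, adjusted p = 0.000863, edgeR), with 4T1.2 below every other library and 4T1 replicate 2 above both of 67NR.

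The call for Psmb9 between 4T1 and 66cl4 (log2 fold change -0.47, adjusted p = 0.0227, edgeR) was lost without 4T1 replicate 1, 66cl4 replicate 1 or 66cl4 replicate 2 (adjusted p 0.117, 0.0719 and 0.0733). Between 66cl4 and 67NR it did not pass the test (0.34, adjusted p = 0.112, edgeR) but did without either 4T1 library (0.34 and 0.32, adjusted p 0.00975 and 0.0131), neither of which is in that comparison. Between 4T1 and 67NR it did not pass (-0.13, adjusted p = 0.476, edgeR), was -0.45 without 4T1 replicate 2 (adjusted p = 0.00507) and 0.13 without 4T1 replicate 1 (adjusted p = 0.336).

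Psmb9 and Tap1 start 226 bases apart on opposite strands, so that a single window covers both starts. The sequence is shown because Psmb9 and Tap1 were both lower in the 4T1 lines. It is chr17:34187306-34187605 on the plus strand, the strand of Tap1 (RefSeq, GRCm38.p6), and capitals mark TGACG and CCAAT, the reverse complement of ATTGG.
Tap1 and Psmb9: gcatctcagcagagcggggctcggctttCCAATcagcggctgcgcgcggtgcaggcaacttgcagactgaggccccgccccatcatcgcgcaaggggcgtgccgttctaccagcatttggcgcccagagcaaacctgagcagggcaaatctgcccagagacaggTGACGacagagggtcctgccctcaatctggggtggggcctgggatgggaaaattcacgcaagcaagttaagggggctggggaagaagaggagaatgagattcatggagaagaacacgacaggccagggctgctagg
The distance from Tap1 to the starts of Psmb8 and Tap2 is 10.6 kb and 16.9 kb, and Psmb8, which lies between Tap1 and Tap2, was the one of these neighbours that was higher in the 4T1 lines. The strand setting of the counting is not given in the sources used here. Of 75-base stretches, 2.40% of Tap1 and 3.44% of Psmb9 lay in a transcript of the other gene.

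The subunits were also set against their constitutive counterparts and other proteasome genes. Of 12 other proteasome genes tested, 11 were higher and none lower in the pooled comparison (edgeR, also none lower at an unadjusted p under 0.05), against 38.1% and 38.6% of all genes tested, with a median log2 fold change of 0.90. The gene not called, Psma1, was named after its value was seen (adjusted p = 0.889, edgeR). Psmb5, the counterpart of Psmb8, was higher by 1.40 (SE 0.10), Psmb6, the counterpart of Psmb9, by 0.86 (SE 0.11), and Psmb7, the counterpart of Psmb10, by 0.94 (SE 0.10). Psmb10, the remaining immunoproteasome subunit, was higher by 0.94 (SE 0.11, adjusted p = 2.09e-05, edgeR), and the activator genes Psme1 and Psme2 by 0.94 and 0.81. These 3 genes were also higher in 66cl4 than in 67NR, by 1.15, 0.70 and 0.55. Of the 12, 3 were higher and 3 lower in that comparison (median -0.12), against 22.2% and 22.4% of all genes tested. The lower ones were Psmb5 (-0.44), Psme3 (-0.87) and, named after its value was seen, Psmd1 (-0.34).

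On the RPKM scale the ratio of Psmb9 to Psmb6 was 0.12 and 0.13 in 4T1, 0.096 and 0.082 in 4T1.2, 0.26 and 0.22 in 67NR, and 0.35 and 0.37 in 66cl4. The lines did not overlap, and the highest library exceeded the lowest 4.57-fold. Their order was that of the mean level of Psmb9 itself. The ratio of Psmb8 to Psmb5 was 1.54 and 1.92 in 4T1, 1.16 and 1.30 in 4T1.2, 1.552 and 1.503 in 67NR, and 2.05 and 1.86 in 66cl4. It was lowest in 4T1.2, with the other lines overlapping in part, although Psmb8 itself was higher in the 4T1 lines. The ratio of Psmb10 to Psmb7 was 0.28 and 0.30 in 66cl4, 0.17 to 0.20 in 4T1.2 and 4T1 and 0.12 in both 67NR libraries. Each of these 3 ratios had its highest value in a 66cl4 library. These ratios were given no test.

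**Figure D3:**
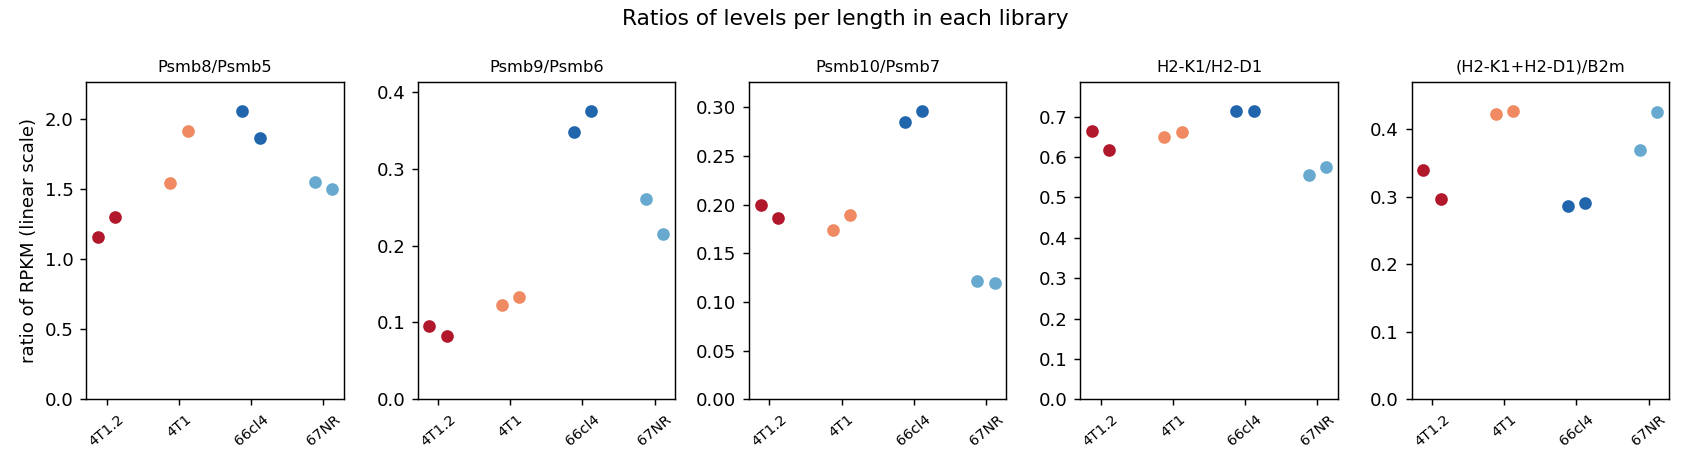
Ratios of RPKM values in each library (points, 2 a line) on linear axes from 0. The ratio of Psmb9 to Psmb6 was 0.35 and 0.37 in 66cl4 against 0.082 to 0.13 in 4T1.2 and 4T1, and the ratio of both heavy chains to B2m was 0.287 and 0.291 in 66cl4, close to the 0.297 of a 4T1.2 library.

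Nlrc5 (chromosome 8, 94434335 to 94527272) differed most of the 10 genes. It had 799 and 630 counts in 4T1.2 (14.1 and 11.1 CPM), 682 and 398 in 4T1 (11.2 and 8.58 CPM), 859 and 1398 in 67NR (23.4 and 22.6 CPM), and 14 and 13 in 66cl4 (0.309 and 0.290 CPM). Both 66cl4 libraries were far below the rest, and both 67NR libraries above. It was 76.3-fold lower in 66cl4 than in 67NR (log2 fold change -6.25, SE 0.24, adjusted p = 1.21e-07, edgeR), and 32.8-fold and 41.7-fold lower than in 4T1 and 4T1.2 (log2 fold changes of 4T1 and 4T1.2 against 66cl4 5.04 and 5.38, adjusted p 5.57e-08 and 3.35e-08). 4T1.2 and 4T1 were below 67NR by 0.87 and 1.22 (adjusted p 0.000703 and 8.03e-05, edgeR) and did not pass the test against each other (0.35, 95% interval -0.01 to 0.70). The pooled log2 fold change of 2.08 therefore averages a line far below and a line above the 4T1 lines. The spread of its line means, 6.09 on the log2 scale, was at percentile 94.1 of all genes tested, whereas the other 9 genes lay between percentile 39.7 (Cd274) and 75.1 (Tap1).

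The order of lines for Nlrc5, 67NR above 4T1.2 and 4T1 and these above 66cl4, matched that of H2-K1, H2-D1 and B2m at the bottom only. The other 6 genes had no minimum in 66cl4 except Psmb8, whose mean there, 80.8 CPM, did not differ from the 85.2 CPM of 67NR by the test.

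In 66cl4, genes that interferons induce were high. Of 29 tested, 27 were higher and 1 (Oasl1, -0.89, named after its value was seen) lower in 66cl4 than in 67NR, with a median log2 fold change of 2.17 against 0 over all genes tested, where 22.2% were called higher and 22.4% lower. Against 66cl4, 4T1 had 26 of them lower and 1 higher (Oasl1), and 4T1.2 had 26 lower and 2 higher (Oasl1 and Psmb10, which also stands in the proteasome list). Of all genes tested 35.2% were lower and 34.9% higher in 4T1 than in 66cl4. For 4T1.2 against 66cl4 these shares were 34.5% and 34.3%. The guanylate binding protein gene Gbp4 had means of 120 CPM in 66cl4, 31.7 in 67NR, 32.9 in 4T1 and 8.22 in 4T1.2. Irgm1, an interferon-inducible GTPase, had 297 CPM in 66cl4, 93.8 in 67NR, 41.1 in 4T1 and 50.8 in 4T1.2, and Oasl2, an oligoadenylate synthetase-like gene, had 118, 11.8, 14.7 and 32.6 CPM in the same order. Ifit2 was an exception, with 68.4 CPM in 66cl4 and 76.4 in 67NR (log2 difference -0.16, adjusted p = 0.206, edgeR) and 22.5 in 4T1.2 and 21.4 in 4T1. 66cl4, higher than each other line for at least 26 of the 29, was also the line with the lowest means of Nlrc5, H2-K1, H2-D1 and B2m and the highest of Tap1, Tap2 and Tapbp.

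**Figure D4:**
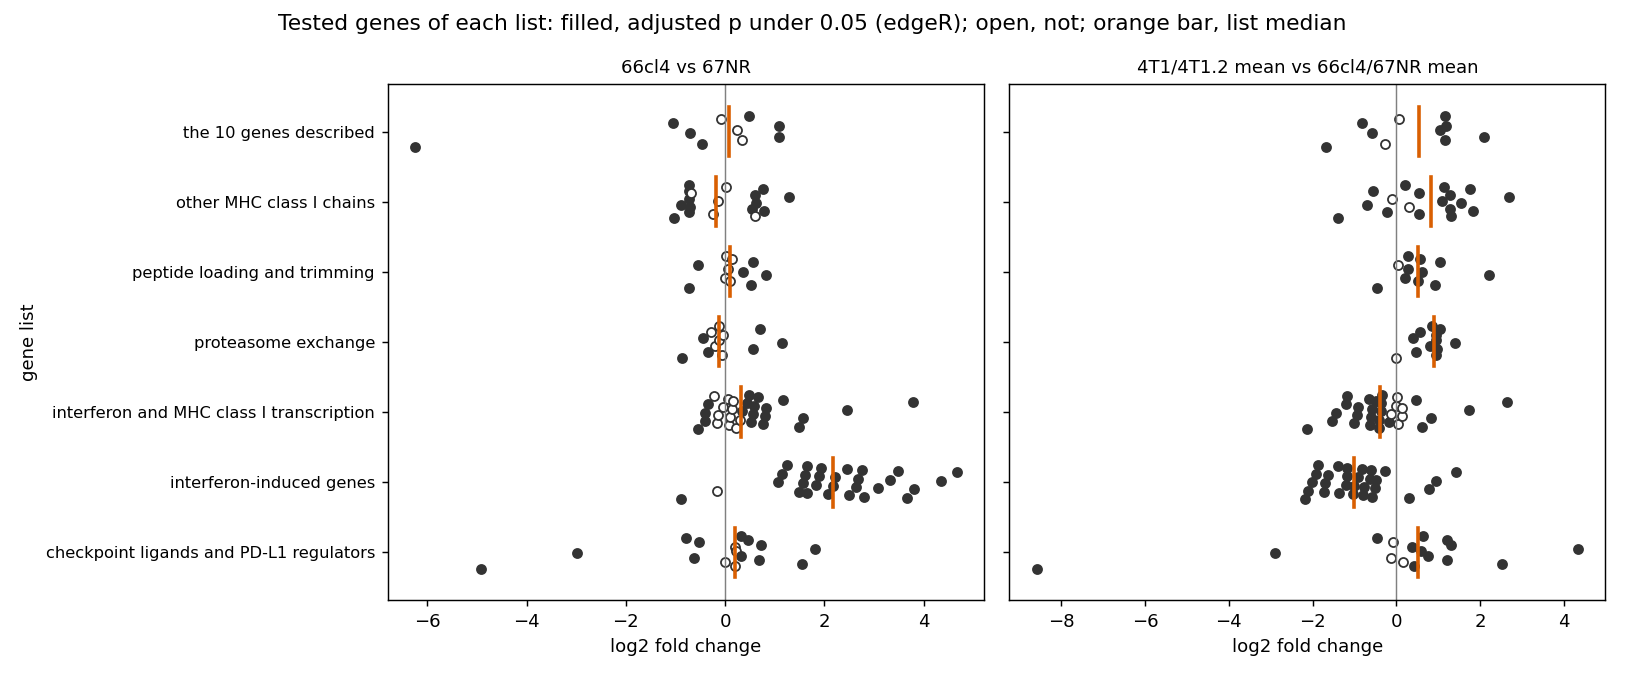
Log2 fold changes of the tested genes of each list (points) in 66cl4 against 67NR and in the pooled comparison, filled at an adjusted p under 0.05 (edgeR), with list medians as orange bars. Of 29 interferon-induced genes 27 were higher in 66cl4 than in 67NR, while Nlrc5 was lower by 6.25.

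Of 30 tested genes of interferon signalling and class I transcription, 15 were higher and 4 lower in 66cl4 than in 67NR (median 0.33), and 5 were higher and 19 lower in the pooled comparison (median -0.40). Of all genes tested 22.2% were higher and 22.4% lower in the first comparison, and 38.1% and 38.6% in the second. Named after their values were seen, the 4 lower in 66cl4 were Ifngr2, Socs1, Rfxap and Nfya, and the 5 higher in the 4T1 lines were Jak2, Irf8, Ciita, Ptpn2 and Nfyb. Irf7, which amplifies interferon responses, had means of 85.5 CPM in 66cl4, 6.23 in 67NR, 8.25 in 4T1 and 12.6 in 4T1.2 (66cl4 against 67NR 3.78, SE 0.17, adjusted p = 2.91e-07, edgeR). Irf1, a factor that activates class I genes after interferon, was higher in 66cl4 than in 67NR by 0.82 (adjusted p = 0.000174, edgeR), and Irf2, which opposes Irf1, by 0.57 (adjusted p = 0.0143, edgeR). In the pooled comparison Irf2 was lower by 0.42, and Irf1 did not pass (0.13, adjusted p = 0.138, edgeR).

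The interferon gamma receptor gene Ifngr1 was lower in the 4T1 lines by 1.02 (SE 0.06), as were Rfx5, a factor of the X box complex, by 1.19 (SE 0.09) and the feedback inhibitor gene Socs3 by 2.14 (SE 0.06). Irf8, known from myeloid cells, was higher by 2.65 (SE 0.08), with 41.7 CPM in 4T1 and 16.0 in 4T1.2 against 3.91 in 66cl4 and 4.32 in 67NR. Ciita, the class II counterpart of Nlrc5, had at most 0.653 CPM on average in a line. The interferon genes Ifng and Ifnb1 had means of at most 0.00818 and 0.177 CPM and were not tested.

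Cd274 differed least of the 10 genes by the range of its line means (0.77 on the log2 scale). It had 2.19 and 1.72 CPM in 4T1, 3.36 and 3.23 in 4T1.2, 3.19 and 2.51 in 67NR, and 3.18 and 3.52 in 66cl4, or 80 to 191 counts a library. Both 4T1 libraries lay below the other 6. The pooled comparison did not pass the test (log2 fold change -0.27, 95% interval -0.57 to 0.03, adjusted p = 0.0913, edgeR), but did with library totals in place of TMM (-0.40, adjusted p = 0.0289) and without 4T1 replicate 1 (-0.37, adjusted p = 0.0442). 4T1.2 was 1.67-fold above 4T1 (log2 fold change 0.74, SE 0.19, adjusted p = 0.0237, edgeR), which was lost without 4T1.2 replicate 1, 4T1.2 replicate 2 or 4T1 replicate 2 (adjusted p 0.116, 0.0882 and 0.102). 4T1 was below 66cl4 by 0.76 (adjusted p = 0.00551, edgeR) and below 67NR by 0.52 (adjusted p = 0.0389, edgeR). The latter was lost with DESeq2 (adjusted p = 0.0580), with limma-voom (0.0608), and without either 4T1.2 library, 4T1 replicate 2 or 67NR replicate 1 (0.0542, 0.0541, 0.179 and 0.217).

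The promoter of Cd274 is shown because it held 1 of the 2 matches to the interferon-stimulated response element core GAAANNGAA, here as the reverse complement (capitals). The window is chr19:29367188-29367487 on the plus strand (RefSeq, GRCm38.p6), at a start inside the gene span of 29362107 to 29388095.
Cd274: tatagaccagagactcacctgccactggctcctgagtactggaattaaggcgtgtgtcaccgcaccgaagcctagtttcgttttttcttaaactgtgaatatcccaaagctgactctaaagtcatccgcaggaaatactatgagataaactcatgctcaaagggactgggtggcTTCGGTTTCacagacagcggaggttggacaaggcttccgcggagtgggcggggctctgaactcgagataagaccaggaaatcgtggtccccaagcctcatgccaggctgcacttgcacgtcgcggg
The same core stands in the promoter of B2m printed above, and its part in the level of either gene was not tested. For Cd274, 9.22% of the 75-base stretches of its transcripts were found in transcripts of other genes.

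Jak2, which encodes a kinase of interferon gamma receptor signalling, lies at 29251803 to 29313095 on chromosome 19, with Cd274 further along at 29362107 to 29388095. It had means of 383 CPM in 4T1, 521 in 4T1.2, 89.1 in 67NR, and 201 in 66cl4 (pooled log2 fold change 1.74, SE 0.06, adjusted p = 2.54e-09, edgeR), whereas the line means of Cd274 ran from 1.96 to 3.35 CPM. Pdcd1lg2, which encodes the other ligand of PD-1 and lies on the far side of Cd274, had a mean of at most 0.025 CPM in a line. Of the 492 genes tested on the chromosome the median pooled log2 fold change was -0.15.

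Other checkpoint ligands and regulators of PD-L1 differed in both directions. Of 16 tested, 10 were higher and 3 lower in the pooled comparison (median 0.51), against 38.1% and 38.6% of all genes tested, the lower ones being Cd80 and, named after their values were seen, Vtcn1 and Cmtm4. Cd276, encoding B7-H3, had means of 82.1 CPM in 4T1, 80.6 in 4T1.2, 8.32 in 67NR, and 24.2 in 66cl4 (log2 fold change 2.52, SE 0.08, adjusted p = 1.30e-09, edgeR). Pvr, the gene of a TIGIT ligand, was higher by 1.31 (SE 0.09), and Nectin2, that of another, had means of 92.2 CPM in 4T1, 97.0 in 4T1.2, 38.2 in 67NR, and 44.3 in 66cl4 (adjusted p = 5.96e-08, edgeR). Cmtm6, whose product stabilises PD-L1 at the cell surface, was higher by 0.77 (SE 0.07, adjusted p = 4.62e-06, edgeR). Cd80, a costimulatory ligand, was listed at 0 in both 4T1.2 libraries and had means of 0.00818 CPM in 4T1, 0.731 in 66cl4 and 5.80 in 67NR.

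Counted over lines, all 10 genes differed among the 4 lines in the test of any difference (edgeR, 3 degrees of freedom), where 84.8% of all genes tested did. In the pooled comparison 5 of the 10 were higher and 3 lower, against 38.1% and 38.6% of all genes tested. 4T1.2 had 5 higher and 4 lower than 66cl4 (background 34.3% and 34.5%) and 5 higher and 4 lower than 67NR (33.7% and 34.1%). 4T1 had 5 higher and 5 lower than 66cl4 (34.9% and 35.2%), and 5 higher and 3 lower than 67NR (33.9% and 34.4%). Between 66cl4 and 67NR 3 were higher and 4 lower in 66cl4 (22.2% and 22.4%). With 10 genes these counts are given beside the background and nothing is read from them about the set.

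Between 4T1.2, a clone derived from 4T1, and 4T1 itself, 1 gene was higher (Cd274) and 2 were lower (Tap2 and Psmb9) in 4T1.2, where 9.37% and 9.92% of all genes tested were called. The call for Psmb9 (log2 fold change -0.58, adjusted p = 0.0336, edgeR) was lost with limma-voom (adjusted p = 0.0510) and without each of 7 libraries in turn, all but 4T1 replicate 1. The count of 3 fell to 1 without 4T1.2 replicate 1, 4T1.2 replicate 2 or 4T1 replicate 2 and rose to 7 without 4T1 replicate 1. Tap2 was called in each of these fits. The 4T1 replicates differed among themselves, replicate 2 being 1.60-fold above replicate 1 for Psmb8, 1.49-fold for Psmb9 and 1.28-fold for H2-K1.

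The genes H2-K1, H2-D1, Tap1, Tap2, Tapbp, Psmb8 and Psmb9 lie in the H2 region of chromosome 17, taken here as 33919478 to 37483554, with 119 other tested genes. Of these others 52 were higher and 36 lower in the pooled comparison (38.1% and 38.6% of all genes tested), with a median log2 fold change of 0.21. In 66cl4 against 67NR 21 were higher and 28 lower (22.2% and 22.4% of all genes tested, median -0.02). Within the 34.3 kb that hold Psmb9, Tap1, Psmb8 and Tap2 in this order, log2 fold changes ran from -1.68 for Tap1 to 1.17 for Psmb8. The medians over all tested genes of the chromosomes of the remaining genes were 0.21 for chromosome 2 (B2m) and -0.27 for chromosome 8 (Nlrc5), and that of chromosome 17 was -0.10. In 66cl4 against 67NR the median of chromosome 8 was -0.30.

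**Figure D5:**
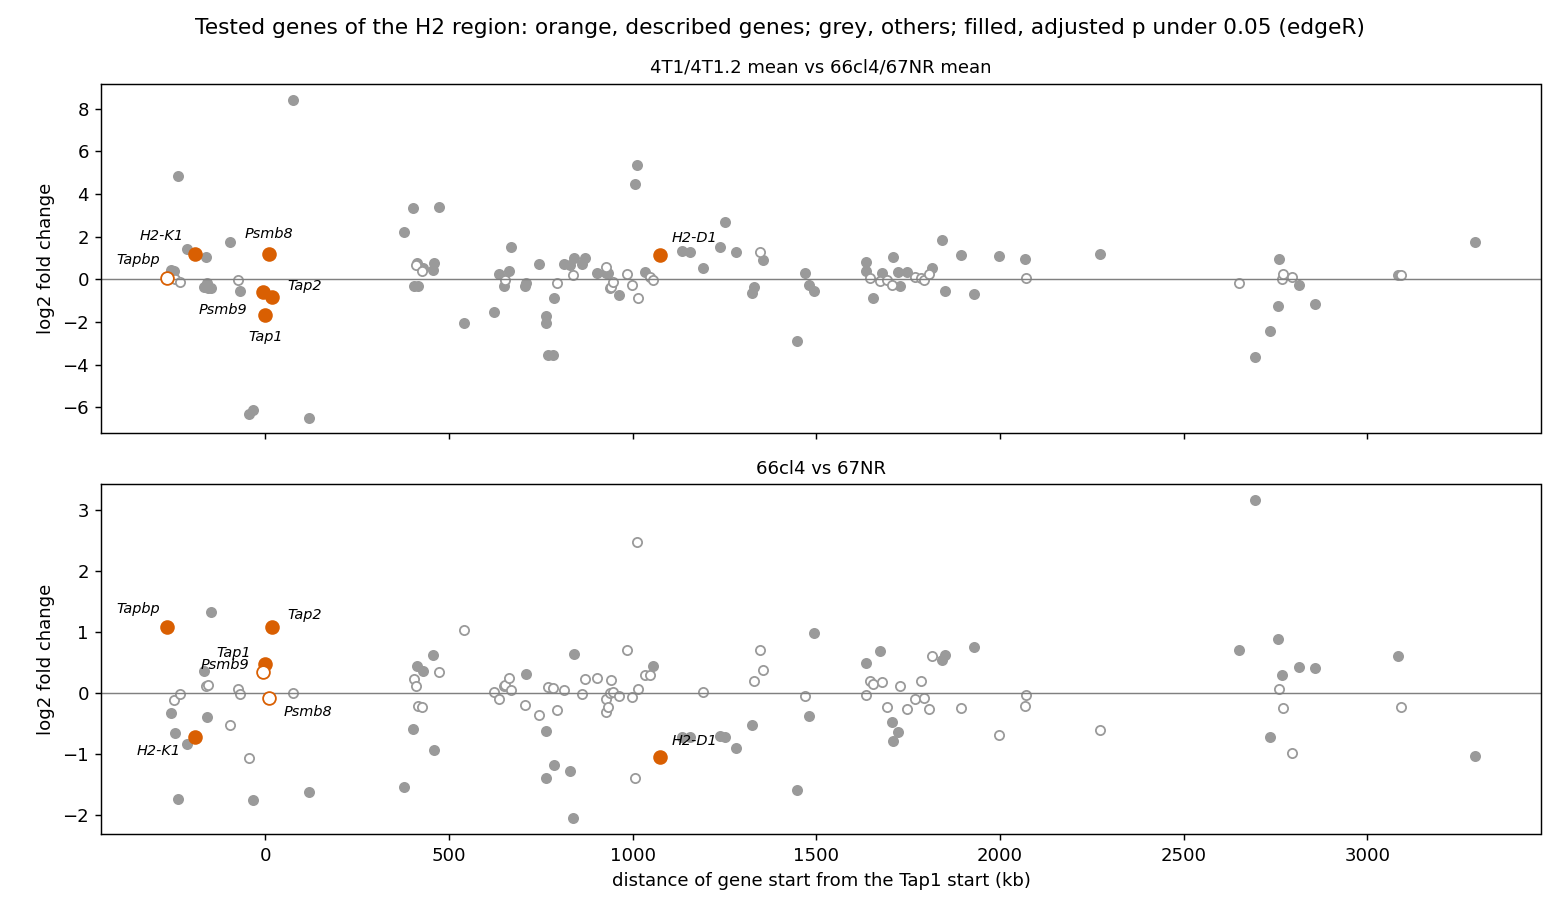
Log2 fold changes of the tested genes of the H2 region by the distance of their start from that of Tap1, in kb, for the pooled comparison (top) and 66cl4 against 67NR (bottom). Orange points are the 7 genes described that lie there and grey points the 119 others, filled at an adjusted p under 0.05 (edgeR), and neighbouring genes such as Tap1 (-1.68) and Psmb8 (1.17) differ in sign in the pooled comparison.

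The likeness of line patterns was measured as the root mean square difference of the 4 line means of log2 CPM, each gene centred on its own mean. Among the 10 genes, H2-K1 and H2-D1 were closest (0.12), followed by B2m and Psmb8 (0.18) and H2-K1 and B2m (0.19). Tap2 and Psmb9 differed by 0.29, and Nlrc5 by 1.84 or more from every other. Of the 11802 genes that averaged 1 CPM or more, Uqcrq (0.030), Tars (0.039) and H2-Q2 (0.048) were nearest to H2-K1, and A130051J06Rik, Dcun1d1 and Slc6a9 to H2-D1 (0.041 to 0.058). Klhdc10, Cnst and Mrpl12 were nearest to B2m (0.014 to 0.036), Amotl2, Ypel4 and Fam114a1 to Tap1 (0.020 to 0.049), Ccdc71l, Sphk1 and Myo6 to Tap2 (0.061 to 0.112), and Tor3a, Capn5 and Perm1 to Tapbp (0.028 to 0.043). For Psmb8 these were Slc22a15, Gga1 and Mtdh (0.016 to 0.029), for Psmb9 Heca, Glyctk and Sri (0.037 to 0.053), and for Cd274 Spin4, Irak1bp1 and Plcg1 (0.040 to 0.062). No gene came close to Nlrc5, for which Ccnb1ip1, Rrad and Myorg were nearest at 0.485, 0.517 and 0.595, each also far lower in 66cl4 than in the other lines. With only 4 line means, many genes share a pattern by number alone.

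The MHC class II genes and natural killer ligands were counted beside the class I genes, and those of them with small counts were named after their values were seen. Of 7 tested MHC class II genes, 3 were higher (H2-Ab1, H2-Oa and Cd74) and 4 lower (H2-Eb1, H2-DMa, H2-DMb1 and H2-DMb2) in the pooled comparison, where 38.1% and 38.6% of all genes tested were called. All were low, with line means under 4 CPM except for Cd74, the invariant chain gene, which had 21.2 CPM in 4T1, 4.98 in 4T1.2, 0.255 in 67NR, and 0.210 in 66cl4. Of 5 tested genes of ligands of the natural killer cell receptor NKG2D, Raet1d and Raet1e were higher (means of 26.7 and 22.2 CPM in 4T1.2 against 4.99 and 3.50 CPM in 66cl4) and H60b and H60c lower (log2 fold changes -1.36 and -0.83). Those 4 were lower in 66cl4 than in 67NR and none was higher (edgeR), where 22.4% and 22.2% of all genes tested were called lower and higher. Ulbp1, the remaining gene, was higher in 66cl4 by 0.36 at an unadjusted p of 0.0496 (edgeR).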

How the data were processed

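Total RNA of 4 cell lines, 2 biological replicates each, had been made into TruSeq RNA v2 libraries and sequenced. The authors aligned the reads with Rsubread to mm10, counted them per Entrez gene with featureCounts, and deposited raw counts. The strand and multimapping settings are not given in the sources used here. H2-L, H2-Q8, H2-Q9, H2-T9 and some Raet1 and H60 genes of the lists were not matched in the table and were not analysed here.

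Gene symbols came from reference tables (25275 of 27179 identifiers, 93.0%). Predicted, ribosomal and unlisted genes and genes failing the default edgeR filter on low counts were removed, leaving 13927. Libraries were scaled by TMM, and a quasi-likelihood model with a mean per line (4 residual degrees of freedom) was fitted with edgeR 4.0.16 in R 4.3.3. Genes were called at an adjusted p under 0.05. The standard error is the log2 fold change divided by the square root of F, and is approximate. Intervals are at 95%. Fits with DESeq2 1.42.0 and limma 3.58.1 (voom), other scalings and filters, a replicate block and each library left out were alternatives. Depth was 37159840 to 66269681 counts a library, and replicates of a line differed by more than sampling noise (chi-square per degree of freedom 9.62 to 70.6).

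The 10 genes and the lists were chosen with earlier results of these data known. Besides the 10, at most 4 genes a list were named, those with the smallest p in the test of any difference between lines, plus genes listed for their function (Psmb6, Psmb7, Psme1, Psme2, Irf1, Irf2, Ifngr1, Rfx5, Ciita, Ifng, Ifnb1, Pdcd1lg2, Cmtm6, H2-T23, Tapbpl and others). Genes named outside this rule are marked in the text, apart from markers of other cell types. RPKM used the exon lengths of the table. Promoters were RefSeq windows (GRCm38.p6). Shared stretches were counted over GENCODE transcripts.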

Additional observations from a re-analysis of the deposited data

How the results depend on the processing

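Over all alternatives, 1190 log2 fold changes of the 10 genes were recomputed, of which 1154 stayed on the same side of the threshold, 27 lost the call and 9 gained one. The sign changed in 12, all of differences not called in either fit, and in 0 of those called as reported. Of the 54 calls made for a gene in a comparison, 8 were lost under some alternative, and 7 of the values not called were gained under one. The number of the 10 genes called between 4T1.2 and 4T1, 3 as reported, ran from 1 to 7 when a library was left out, 1 without either 4T1.2 replicate or without 4T1 replicate 2 and 7 without 4T1 replicate 1. A fit that left a line with a single library assumed that it varied like the others. Replicate numbers did not pair the samples (correlations of deviations -0.12 to 0.27), and with a replicate block the pooled comparison called 8 of the 10 genes, as without it, and no other call of the 10 genes changed. Library totals in place of TMM moved the median of all genes in the pooled comparison from -0.01 to -0.14. The cause of the changes with a library left out was not tested. Cd274 had the fewest counts apart from Nlrc5 in 66cl4, 80 to 191 a library, and with 2 replicates a line its calls other than that between 4T1 and 66cl4 depended on single libraries. The reference carries C57BL/6J alleles of the polymorphic H2 genes.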
